A study of Mus musculus with 7 samples.

Results

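The 10 integrin subunit genes described here, measured in the incisor epithelium of newborn mice, were the fibronectin receptor chains Itga4, Itga5, Itga8, Itga9, Itgav and Itgb1, the collagen receptor chains Itga10 and Itga11, and the TGF-beta-activating chains Itgb6 and Itgb8, which act with Itgav. They were found by symbol among 25700 Ensembl genes, and all 10 of the 10 were present and passed the filter on low counts. They are a chosen set among 26 integrin subunit genes in the count files.

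Integrins are receptors in the cell membrane that link the matrix outside a cell to the actin cytoskeleton inside it. Each receptor is a pair of 1 alpha and 1 beta chain, and the pair sets which ligand is bound. Beta 1 is the common partner of the alpha 4, 5, 8, 9, 10 and 11 chains and also pairs with alpha v, while beta 6 and beta 8 pair with alpha v alone. Alpha v with beta 6 or beta 8 binds the latent form of TGF-beta and frees the active growth factor. In teeth the beta 6 chain is made by ameloblasts, the epithelial cells that lay down enamel, and mice without it have defective enamel.

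The samples were 4 K14;Nogo-A pups (replicates 1, 2, 7 and 10), which carried K14cre cre/+ and Nogo-A fl/fl, and 3 wild-type pups (replicates 3, 8 and 9), all at postnatal day 0. Both lower incisors of a pup gave 1 library of dental epithelium, separated with Dispase and numbered here by pup. The K14 promoter drives the recombinase in epithelial cells, so cells of other origin in the same piece keep Nogo-A. Rtn4, the gene of Nogo-A, was at 297 to 344 CPM (a gene's count scaled to library size with TMM factors) in K14;Nogo-A and at 277 to 346 in wild-type, but a whole-gene count also holds the other Rtn4 isoforms and does not check the deletion.

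The libraries held 20929207 to 41219439 counts, of which the 10 genes took 0.112% to 0.142%. Epithelial markers were present throughout, with Krt14 at 1468 to 2677 CPM and Cdh1 at 671 to 1085 CPM, and so was the mesenchymal gene Vim, at 419 to 799 CPM. The mean log2 CPM of 11 mesenchyme markers that encode no matrix or adhesion protein was 5.07 to 5.15 in the K14;Nogo-A pups and 5.36 to 5.56 in wild-type, with 10 of the 11 negative in log2 fold change and none at 0. K14;Nogo-A pup 1 and wild-type pups 3 and 8 held Y-linked transcripts (mean log2 CPM 4.94 to 5.27), and the other 4 libraries did not (-3.71 to -3.04). Principal component 1 (34.5% of variance) put K14;Nogo-A pup 1 at -16.5 among the wild-type libraries, at -31.4 to 0.356, and the other K14;Nogo-A libraries at 19.2 to 29.2. In such bulk samples, fewer cells of a type and less RNA per cell cannot be told apart.

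The integrin genes differed in direction. Itga4 was lower and Itgb6 higher in the K14;Nogo-A epithelium at the study's thresholds (unadjusted p up to 0.05, with log2 fold change of size 0.5 or more), and the other 8 genes were not past them. These are 1 of 10 genes lower, where 2.74% of the 14791 genes tested were lower, and 1 of 10 higher, where 2.02% were higher. At an adjusted p under 0.05 by edgeR's quasi-likelihood test 0 of the 10 genes were called, and over all genes 0.0338% were called lower and 0.0% higher. Without adjustment, 1 of them was higher and 3 lower at p under 0.05, where 6.25% of all genes tested were higher and 6.66% lower. By DESeq2, Itgb6 was higher (adjusted p = 0.017) and Itga4 lower (adjusted p = 0.022), and edgeR's likelihood-ratio test and limma-voom called 0. The log2 fold change was negative in 8 of the 10 genes with a median of -0.20, beside 51.5% negative and a median of -0.0069 over all genes tested.

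**Figure D1:**
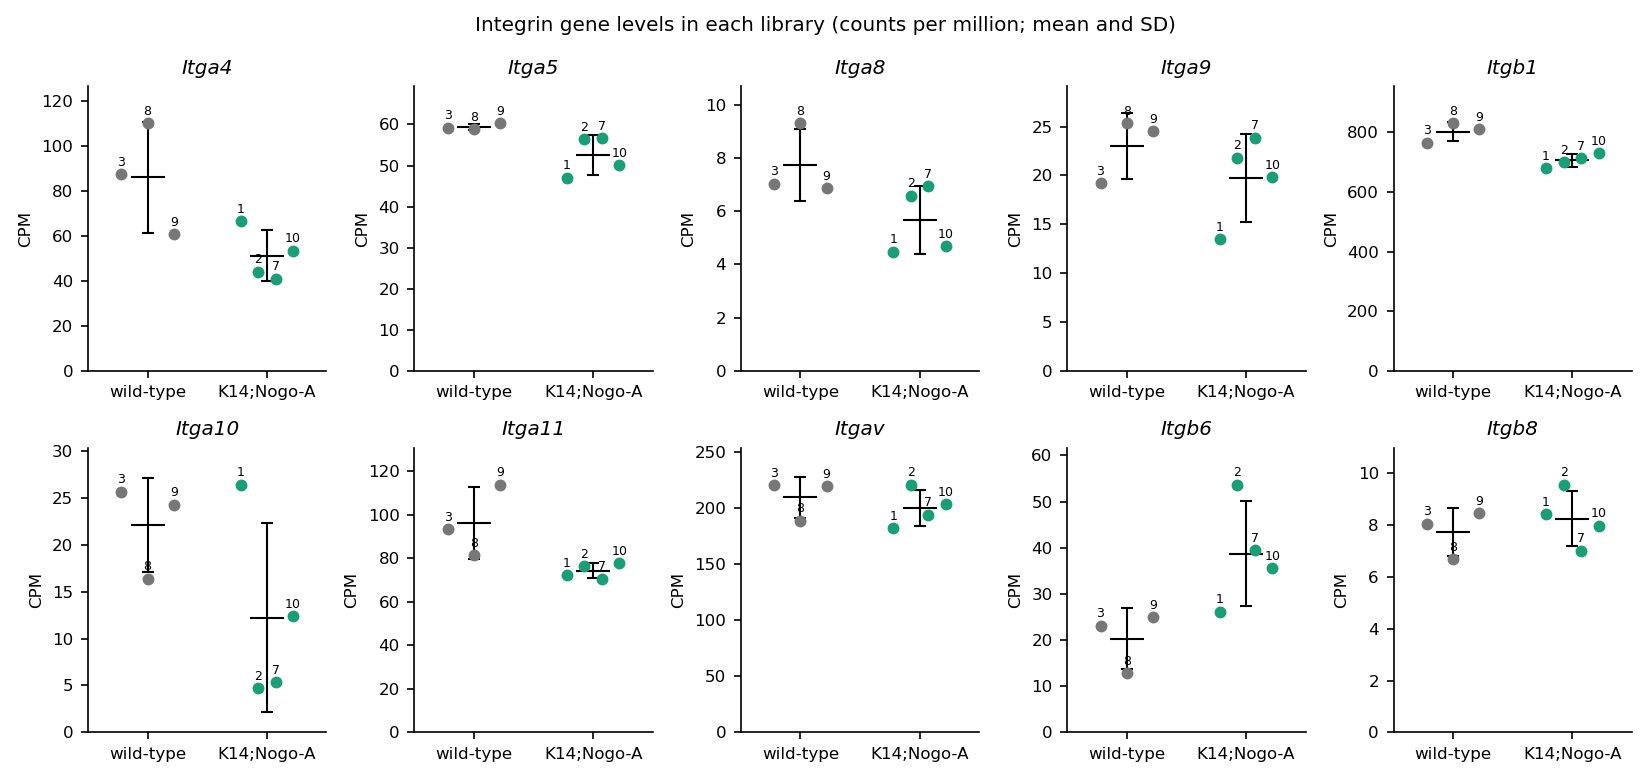
CPM (vertical axes, each from 0) of the 10 integrin genes in 3 wild-type (grey) and 4 K14;Nogo-A libraries (green). Points are libraries numbered by pup, and bars give the mean and SD. Itgb6 lies at 26.2 to 53.7 in the K14;Nogo-A pups and 12.8 to 25.0 in wild-type, and Itga10 spreads from 4.69 to 26.4 within K14;Nogo-A.

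Itga4 codes for the alpha 4 chain, which with beta 1 binds fibronectin and the cell surface protein VCAM-1. The gene (ENSMUSG00000027009) lies on chromosome 2 of GRCm38 from 79255426 to 79333123, on the plus strand. It was at 87.3, 110.0 and 60.8 CPM in wild-type pups 3, 8 and 9, and at 66.4, 44.0, 40.9 and 53.4 CPM in K14;Nogo-A pups 1, 2, 7 and 10. Only 1 pair of libraries crossed, K14;Nogo-A pup 1 lying above wild-type pup 9. The libraries with Y-linked transcripts (K14;Nogo-A pup 1 and wild-type pups 3 and 8) were all above those without. The means were 86.1 ± 24.6 CPM in wild-type (SD, n = 3) and 51.2 ± 11.4 CPM in K14;Nogo-A (SD, n = 4). The log2 fold change was -0.75 (SE 0.21, edgeR adjusted p = 0.24). The difference in mean log2 CPM had p = 0.086 in the exact two-sided permutation test, whose smallest possible p is 0.0286. Antisense genes share exonic bases with Itga4 (1124, with Cerkl), Itgav (634, with Gm13684) and Itga8 (372, with E030013I19Rik), and no source used here states whether the counting used strand, so reads there may be from either. Cerkl had 110 counts over all libraries. The sequence before the start of Itga4 is shown with that of Itgb6, since these are the genes that passed the thresholds, in opposite directions.

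Itgb6 codes for the beta 6 chain of the epithelial receptor that activates TGF-beta. It lies on the same chromosome (ENSMUSG00000026971, from 60598292 to 60722643, minus strand). Wild-type pups 3, 8 and 9 had 23.1, 12.8 and 25.0 CPM, and K14;Nogo-A pups 1, 2, 7 and 10 had 26.2, 53.7, 39.4 and 35.5 CPM. All K14;Nogo-A libraries were above all wild-type libraries, although pup 1 exceeded the highest of them by a small margin. The means were 20.3 ± 6.58 CPM (SD, n = 3) and 38.7 ± 11.4 CPM (SD, n = 4), which is 1.91-fold higher. Its log2 fold change of 0.94 carried a standard error of 0.29 (adjusted p = 0.27, edgeR's quasi-likelihood test, with exact two-sided permutation p = 0.057).

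Both calls were past the study's thresholds in each of the 7 fits that left out 1 library, with log2 fold changes from -0.94 to -0.53 for Itga4 and from 0.69 to 1.12 for Itgb6. With the Y-linked transcripts as a covariate Itga4 had a log2 fold change of -0.49, no longer past them by its size, and Itgb6 had 0.69. In that fit Itga4 had an unadjusted p of 0.0025 and an adjusted p of 0.22 by edgeR's quasi-likelihood test. With the mesenchyme markers as a covariate neither was past them, Itga4 at -0.02 and Itgb6 at 0.39, and Itga11 was, at -1.06. The genotypes do not overlap in these markers, so that fit extrapolates.

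The stretch before each start was read from RefSeq (GRCm38.p6) and printed 5′ to 3′ on the gene's strand, up to the first annotated exon base, without marking the GC box GGGCGG (32.7% of windows). Capitals mark matches on either strand to CAGAC, the SMAD core of TGF-beta signalling, or TGTGGT, a RUNX site.
Itga4 (chr2:79255176-79255425, plus strand): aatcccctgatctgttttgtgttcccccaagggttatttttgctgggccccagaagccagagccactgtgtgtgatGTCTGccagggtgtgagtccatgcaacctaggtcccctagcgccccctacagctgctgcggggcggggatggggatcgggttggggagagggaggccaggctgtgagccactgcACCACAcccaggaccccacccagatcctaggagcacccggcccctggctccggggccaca
Itgb6 (chr2:60722644-60722853, minus strand): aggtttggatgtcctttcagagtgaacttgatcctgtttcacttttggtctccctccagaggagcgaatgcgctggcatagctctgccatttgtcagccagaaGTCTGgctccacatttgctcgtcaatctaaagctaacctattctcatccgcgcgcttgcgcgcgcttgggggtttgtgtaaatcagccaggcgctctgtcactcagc

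Each of these stretches held 1 CAGAC match. Of 32851 RefSeq start windows of 250 bases, 42.2% held CAGAC and 14.05% TGTGGT, which is the share to read the matches of Itga4 against. The stretch shown of Itgb6 has only 210 bases, so for it these shares are not of like length. The AP-1 letters TGANTCA (6.75% of windows), the heat shock letters GAANNTTC (6.69%) and the ETS letters GGAAGT (19.7%) had no match in the stretches shown. RefSeq lists a second start of Itgb6, whose stretch of 189 bases held no CAGAC match and is not shown. The full window of 250 bases before that start held 2 ETS matches and no CAGAC.

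The remaining fibronectin receptor chains were not past the study's thresholds. Itgb1 (ENSMUSG00000025809, chromosome 8 from 128685654 to 128733200), the beta chain that most of these receptors share, was at 766, 831 and 812 CPM in wild-type pups 3, 8 and 9 and at 681, 700.3, 714 and 730.3 CPM in K14;Nogo-A pups 1, 2, 7 and 10. The genotypes did not overlap, yet the means of 803 ± 33.4 CPM (SD, n = 3) and 706 ± 20.9 CPM (SD, n = 4) differed by a log2 fold change of only -0.19 (SE 0.09, edgeR adjusted p = 0.42). The exact two-sided permutation test gave p = 0.029, the smallest it can give here.

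Itga5 (ENSMUSG00000000555, chromosome 15 from 103344286 to 103366763) makes the alpha 5 chain of the main fibronectin receptor. Its wild-type libraries lay closely together at 59.2, 58.9 and 60.3 CPM, and K14;Nogo-A pups 1, 2, 7 and 10 were below them at 47.0, 56.4, 56.7 and 50.1 CPM. A log2 fold change of -0.18 (SE 0.10, edgeR adjusted p = 0.45) separated the means.

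Itga8 (ENSMUSG00000026768, chromosome 2 from 12106632 to 12301922), the alpha chain that binds nephronectin and fibronectin, was scarce. It had 7.04, 9.30 and 6.87 CPM in wild-type pups 3, 8 and 9 and 4.48, 6.59, 6.94 and 4.69 CPM in K14;Nogo-A pups 1, 2, 7 and 10. The groups overlapped through K14;Nogo-A pup 7, and the log2 fold change was -0.45 (SE 0.20, edgeR adjusted p = 0.38). It passed the study's thresholds when K14;Nogo-A pup 2 (-0.53), K14;Nogo-A pup 7 (-0.56) or wild-type pup 9 (-0.51) was left out. It did not pass them without K14;Nogo-A pup 1 (-0.35) or 10 (-0.37) or wild-type pup 3 (-0.51) or 8 (-0.29). Unadjusted p in the fits that did not pass was 0.053 to 0.22 by edgeR's quasi-likelihood test.

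Itga9 (ENSMUSG00000039115, chromosome 9 from 118606690 to 118901003), whose product binds tenascin-C and the spliced-in EDA stretch of fibronectin, overlapped widely between genotypes. It had 19.2, 25.4 and 24.5 CPM in wild-type pups 3, 8 and 9 and 13.5, 21.8, 23.9 and 19.8 CPM in K14;Nogo-A pups 1, 2, 7 and 10. Between the means lay a log2 fold change of -0.22, with a 95% interval from -0.57 to 0.13.

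Itgav (ENSMUSG00000027087, chromosome 2 from 83724397 to 83806916), the alpha chain that fibronectin receptors and TGF-beta-activating receptors share, had nearly the same level in both genotypes. The wild-type libraries were at 220.3, 188 and 219 CPM and K14;Nogo-A pups 1, 2, 7 and 10 at 182, 221, 194 and 203 CPM. This gave a log2 fold change of -0.07, with a 95% interval from -0.26 to 0.13.

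The means of both collagen receptor chains among the 10 genes were below wild-type. Itga1 and Itga2, collagen-binding chains outside the 10, overlapped between genotypes, with log2 fold changes of -0.19 (SE 0.14) and -0.08 (SE 0.13). Itga11 (ENSMUSG00000032243, chromosome 9 from 62677826 to 62783982) makes the alpha 11 chain, which binds fibrillar collagen and is typical of mesenchymal cells. It was at 93.2, 81.4 and 114 CPM in wild-type pups 3, 8 and 9 and at 72.3, 76.4, 70.6 and 77.7 CPM in K14;Nogo-A pups 1, 2, 7 and 10. The K14;Nogo-A libraries were all lower and much more alike, with an SD of 3.36 CPM (n = 4) against 16.4 CPM (n = 3). The log2 fold change was -0.37 (SE 0.11, edgeR adjusted p = 0.24), too small for the study's thresholds. Only with the mesenchyme covariate was it past them (-1.06, edgeR unadjusted p = 0.0022 and adjusted p = 0.86). The exact two-sided permutation test, without covariate, gave p = 0.029.

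Itga10 (ENSMUSG00000090210, chromosome 3 from 96645584 to 96664519) makes the alpha 10 chain of a collagen receptor best known from cartilage. It varied most of all, by 5.64-fold between the lowest and highest library. Wild-type pups 3, 8 and 9 had 25.7, 16.4 and 24.3 CPM. K14;Nogo-A pups 2, 7 and 10 had 4.69, 5.37 and 12.4 CPM, all below wild-type, whereas K14;Nogo-A pup 1 had 26.4 CPM, above every other library. The log2 fold change of -0.86 carried a standard error of 0.64 (adjusted p = 0.62, edgeR's quasi-likelihood test). Without K14;Nogo-A pup 1 it was -1.56 (adjusted p = 0.087, edgeR's quasi-likelihood test), past the study's thresholds. By limma-voom on all 7 libraries it was -1.20 (adjusted p = 0.25), also past them.

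Other measurements stand beside the spread of Itga10. Markers of osteoblasts and odontoblasts averaged 8.30 on the log2 CPM scale in K14;Nogo-A pup 1, against 7.01, 7.20 and 7.80 in pups 2, 7 and 10 and 8.17 to 8.59 in wild-type, with 8 of the 9 markers negative in log2 fold change and none at 0. Of these 9, 1 was lower at an adjusted p under 0.05 by edgeR's quasi-likelihood test and 1 was lower at the study's thresholds. Over all genes tested 0.0338% and 2.74% were so. The part of these markers in the result was not tested. Cartilage markers were scarce, with a summed level of 35.4 to 52.8 CPM in the K14;Nogo-A pups and 47.2 to 90.6 in wild-type, 5 of the 10 tested and none at 0 in every library. Also, 1739 exonic bases of Itga10, 33.5% of its exons, belong to the annotated gene Gm42957 on the same strand as well, so reads there cannot be given to 1 of them. Gm42957 was at 12.9 to 16.9 CPM in the K14;Nogo-A pups and 16.1 to 18.2 CPM in wild-type, a much narrower range than that of Itga10.

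**Figure D2:**
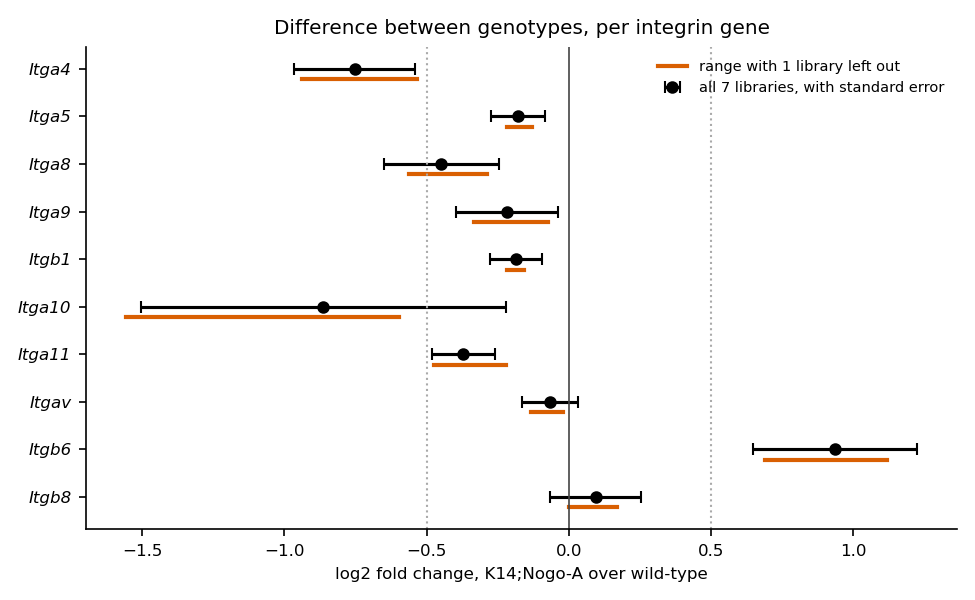
Log2 fold change of K14;Nogo-A over wild-type (horizontal axis) for each integrin gene. Black points are the values of the 7 libraries with their standard error, orange lines the range when 1 library is left out, and dotted lines the size of 0.5 used by the study. Itga4 at -0.75 and Itgb6 at 0.94 stay beyond the dotted lines in every such fit, and Itga10 ranges from -1.56 to -0.60.

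Beta 8 is the other chain with which alpha v activates TGF-beta. Itgb8 (ENSMUSG00000025321, chromosome 12 from 119158022 to 119238802) was at 8.04, 6.67 and 8.45 CPM in wild-type pups 3, 8 and 9 and at 8.40, 9.55, 7.01 and 7.97 CPM in K14;Nogo-A pups 1, 2, 7 and 10. The genotypes overlapped throughout. Its log2 fold change came to 0.09, with a 95% interval from -0.22 to 0.41. The value of Itgb6, 0.94, lies outside it, but the 95% interval of Itgb6, from 0.37 to 1.50, overlaps it.

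Without overlap between genotypes were 3 of the 10 genes in the lower direction (Itga5, Itga11 and Itgb1), where 6.09% of all genes tested were so, and 1 in the higher direction (Itgb6), where 5.43% were. Among the 3 libraries with Y-linked transcripts and again among the 4 without, K14;Nogo-A was below wild-type for Itga4, Itga5, Itga9, Itga11 and Itgb1 and above it for Itgb6. These are 5 and 1 of the 10 genes, where 13.0% and 12.4% of all genes tested were lower and higher in both sets. Each set held only 1 pup of 1 genotype, so these orders have no test.

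Levels were then compared between genes per exon length, as RPKM (CPM divided by exon length in kilobases). Itgb1 stood far above the rest at 183 ± 14.03 RPKM (SD, n = 7) and made up most of the RPKM of the 10 genes in each library. Itgav at 19.0 ± 1.52 RPKM and Itga11 at 16.3 ± 2.97 RPKM came next, and their ranges overlapped. Itga5 followed at 11.3 ± 1.02 RPKM, with no overlap with either neighbour in the order. Itga4 (4.73 ± 1.77 RPKM), Itgb6 (4.33 ± 1.87 RPKM), Itga10 (3.17 ± 1.80 RPKM) and Itga9 (2.75 ± 0.535 RPKM) could not be ordered, since each overlapped the next. Itga8 (0.890 ± 0.220 RPKM) and Itgb8 (0.725 ± 0.0866 RPKM) were lowest and overlapped. By genotype means, Itga4 had rank 5 in wild-type at 6.16 ± 1.76 RPKM (SD, n = 3) and rank 6 in K14;Nogo-A at 3.66 ± 0.818 RPKM (SD, n = 4). Itgb6 had rank 8 in wild-type at 2.86 ± 0.926 RPKM and rank 5 in K14;Nogo-A at 5.44 ± 1.61 RPKM. Within each genotype Itga4 and Itgb6 each overlapped a neighbour in rank, so these ranks do not order the genes either.

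**Figure D3:**
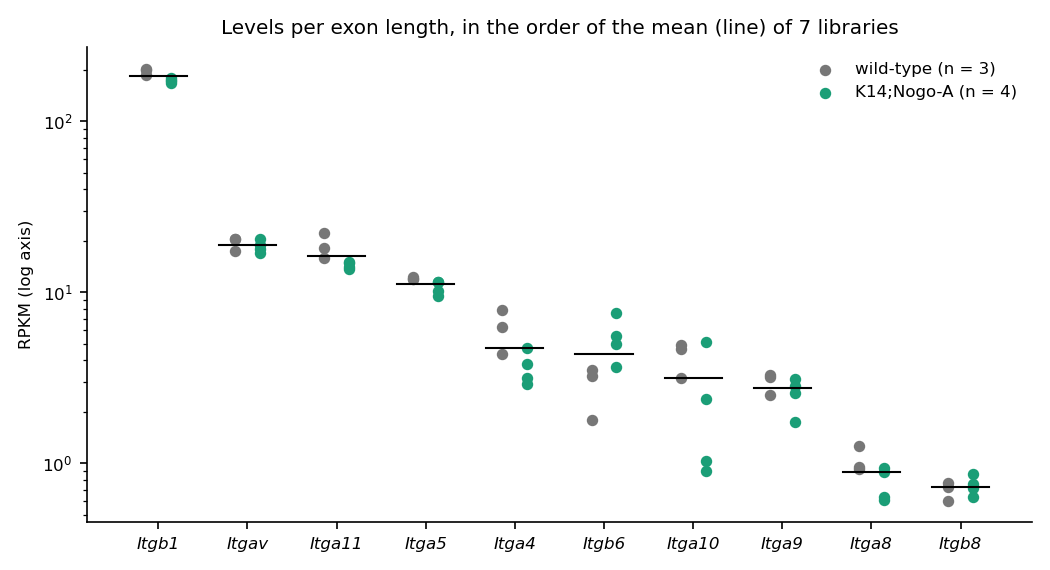
RPKM (log axis) of each integrin gene in 3 wild-type (grey) and 4 K14;Nogo-A libraries (green), ordered by the mean of the 7 libraries (line). Itgb1 lies near 183 RPKM and the next gene, Itgav, near 19.0, while Itga4, Itgb6, Itga10 and Itga9 form an overlapping middle group.

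Since beta 6 and beta 8 both pair with alpha v alone, their balance was taken within each library, where the library size cancels. The RPKM of Itgb6 was 4.47, 2.98 and 4.60 times that of Itgb8 in wild-type pups 3, 8 and 9. In K14;Nogo-A pups 1, 2, 7 and 10 it was 4.85, 8.74, 8.75 and 6.94 times that of Itgb8. K14;Nogo-A pup 1 lay just above wild-type and the others well above it. The log2 ratio was 2.83 ± 0.40 (SD, n = 4) against 1.98 ± 0.35 (SD, n = 3), a difference of 0.85 (exact permutation p = 0.057, two-sided, and 0.11 after adjustment over 4 ratios).

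The summed RPKM of Itgb6 and Itgb8 was 0.194, 0.137 and 0.210 times that of Itgav in wild-type pups 3, 8 and 9, and 0.262, 0.410, 0.343 and 0.302 in K14;Nogo-A pups 1, 2, 7 and 10. All K14;Nogo-A libraries were higher. The difference of the log2 ratio was 0.87 (exact permutation p = 0.029, two-sided, and 0.11 after adjustment over 4 ratios). The ratio of Itga5 to Itgav overlapped between genotypes, with a log2 difference of -0.12 (exact permutation p = 0.29, two-sided, and 0.29 adjusted). For Itga10 to Itga11 the log2 difference was -0.83 (exact permutation p = 0.29, two-sided, and 0.29 adjusted), and K14;Nogo-A pup 1 had the highest ratio of all libraries.

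**Figure D4:**
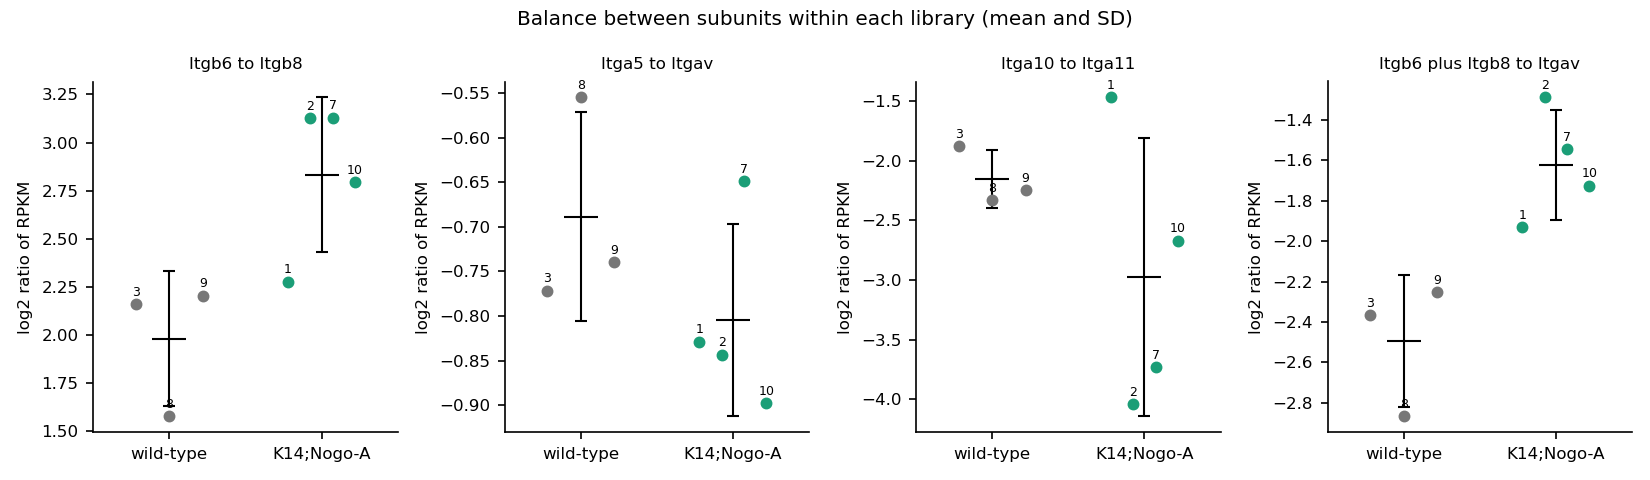
Log2 ratio of RPKM between subunits within each library (vertical axes, each with its own range that does not start at 0), with the mean and SD of 3 wild-type (grey) and 4 K14;Nogo-A libraries (green), numbered by pup. The ratio of Itgb6 plus Itgb8 to Itgav is higher in all K14;Nogo-A libraries, with a mean of -1.62 against -2.50.

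Cell type markers varied between the libraries as well. Ameloblast markers, 8 of 8 positive in log2 fold change and none at 0, averaged 8.11, 9.57, 9.68 and 8.89 in log2 CPM for K14;Nogo-A pups 1, 2, 7 and 10 and 8.19, 7.65 and 8.28 in wild-type pups 3, 8 and 9. Of these 8 markers, 3 were higher at the study's thresholds (2.02% of all genes). Itgb6 was lowest in wild-type pup 8 and highest in K14;Nogo-A pups 2 and 7, as were these markers. A list of 12 epithelium markers had the same lowest and highest pups. It averaged 8.19, 8.55, 8.52 and 8.51 in log2 CPM for K14;Nogo-A pups 1, 2, 7 and 10. Wild-type pups 3, 8 and 9 had 8.21, 7.94 and 8.41. Of the 12, 10 were positive and 2 negative in log2 fold change, and 2 were higher at the study's thresholds (2.02% of all genes). Among the 11 mesenchyme markers, wild-type pup 8 was highest at 5.56 and also highest for Itga4 and Itgb1, but not for Itga11, which was highest in wild-type pup 9. The mean log2 CPM of the mesenchyme markers was 5.07, 5.15, 5.15 and 5.09 in K14;Nogo-A pups 1, 2, 7 and 10, lowest in pup 1. Their summed level was 1234, 943, 979 and 1098 CPM in K14;Nogo-A pups 1, 2, 7 and 10, highest in pup 1. The mean and the sum thus order these pups differently. In the same pups Itga4 was at 66.4, 44.0, 40.9 and 53.4 CPM. Endothelial markers were negative in 9 of 10, with 4 lower at the study's thresholds (mean log2 CPM 4.15 to 4.91 in K14;Nogo-A, 4.78 to 4.95 in wild-type). Immune markers were negative in 9 of 9, with 2 lower at these thresholds (1.92 to 2.68 and 2.37 to 3.06). Of all genes tested, 2.74% were lower at them. None of either list was at 0 in every library. The part of cell composition in these differences, that of Itga4 included, was not tested.

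**Figure D5:**
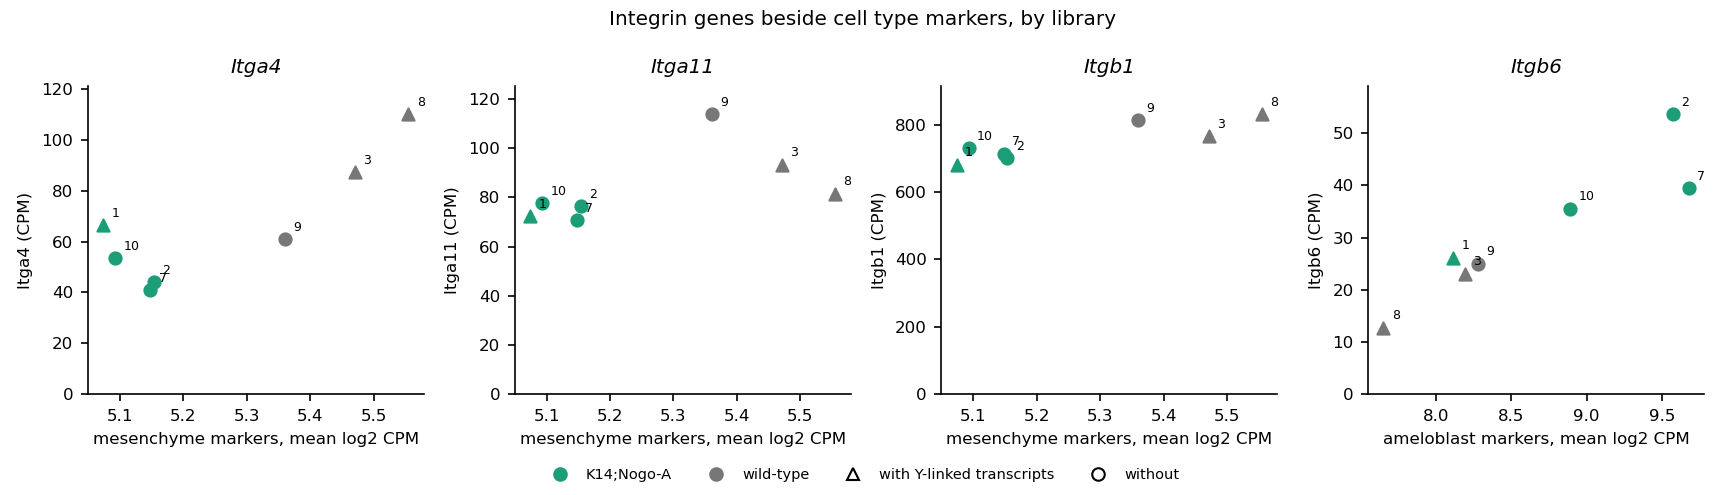
CPM of Itga4, Itga11 and Itgb1 against the mean log2 CPM of 11 mesenchyme markers, and of Itgb6 against 8 ameloblast markers, 1 point per library (green K14;Nogo-A, grey wild-type, triangles with Y-linked transcripts). The genotypes are apart in mesenchyme markers, at 5.07 to 5.15 and 5.36 to 5.56, and overlap in ameloblast markers.

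Ligands of these receptors were mostly below wild-type. Of 21 tested genes of a list of fibronectin-like and other integrin ligands, 1 (Fn1) was lower at an adjusted p under 0.05 by edgeR's quasi-likelihood test. Over all genes tested 0.0338% were so. At the study's thresholds 6 of the 21 were lower and 0 higher, beside 2.74% and 2.02% of all genes. In sign 19 were negative, beside 51.5% of all genes, with a median log2 fold change of -0.60. Fn1, fibronectin itself, was at 320.3, 345 and 291 CPM in wild-type pups 3, 8 and 9 and at 177, 170.3, 175 and 202 CPM in K14;Nogo-A pups 1, 2, 7 and 10. Its log2 fold change was -0.82 (SE 0.10, edgeR adjusted p = 0.028), against -0.18 for its receptor chain Itga5 and -0.75 for Itga4. Fn1 lost its call without K14;Nogo-A pup 2, 7 or 10 or wild-type pup 3 or 8 (edgeR adjusted p 0.077 to 0.19, log2 fold change -0.87 to -0.75) and with the mesenchyme covariate (-0.57, edgeR adjusted p = 0.94). Emilin1 and Fbn1, microfibril proteins that bind integrins, had log2 fold changes of -0.54 and -0.60.

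A few further ligands were picked after their values were seen. Vcam1, a ligand of alpha 4 beta 1, was at 11.1 to 14.2 CPM in wild-type and 6.37 to 10.7 CPM in K14;Nogo-A (log2 fold change -0.70, SE 0.19, adjusted p = 0.22, edgeR's quasi-likelihood test). Tnc, tenascin-C, was at 256 to 280.1 CPM and 192 to 230.5 CPM (log2 fold change -0.33). Npnt, the nephronectin bound by alpha 8, was abundant and overlapped between genotypes, at 591 to 718 CPM and 594 to 728 CPM (log2 fold change 0.10).

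All 15 collagen chains listed as ligands were negative in log2 fold change, with a median of -0.45. At the study's thresholds 5 were lower (Col5a1, Col6a3, Col5a2, Col6a2 and Col11a1) and 0 higher, beside 2.74% and 2.02% of all genes tested. None was called at an adjusted p under 0.05 by edgeR's quasi-likelihood test. Before adjustment 7 lower and 0 higher had p under 0.05 by that test (6.66% and 6.25% of all genes). Col5a1, which starts type I fibrils, had a log2 fold change of -0.57 and Col6a3, of beaded microfibrils, -0.66. Col1a1 had -0.92 with a standard error of 0.51. It was at 23012 CPM in K14;Nogo-A pup 1 and at 6192 to 12553 CPM in the other K14;Nogo-A libraries, so that it was highest of its genotype in the same library as Itga10.

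Genes of TGF-beta itself and its known targets were examined next. Of 9 genes of the latent TGF-beta complex, 0 were past the study's thresholds, with a median log2 fold change of -0.07. Tgfb1, Tgfb2 and Tgfb3, the growth factors themselves, had log2 fold changes of -0.08, -0.23 and 0.02 (standard errors 0.10, 0.10 and 0.13). Of 10 genes that TGF-beta is known to induce or that restrain its signal, 0 were past the thresholds, 5 were positive and 5 negative, and the median was 0.0027. Ltbp2 stood on both lists, with a log2 fold change of -0.56 (SE 0.35). None of these genes reached an edgeR adjusted p under 0.05 (0 of 9 and 0 of 10), and Tgfb2 alone, lower, had an unadjusted p under 0.05.

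The other 16 integrin subunits served as the frame for the 10. Of the 14 tested, 0 were past the study's thresholds in either direction and 0 had genotypes without overlap, with a median log2 fold change of -0.04 and 6 positive and 8 negative values. EdgeR's quasi-likelihood test called 0 of them at an adjusted p under 0.05 and had 0 at an unadjusted p under 0.05. The smallest p values were those of Itgb7, a leukocyte chain (log2 fold change 0.49, SE 0.25), Itga3, a laminin receptor chain of epithelia (0.35, SE 0.17), and Itgb5, a further partner of alpha v (0.21, SE 0.13).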

How the data were processed

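The authors deposited raw read counts per Ensembl gene for each of 7 pups. According to the submitters' processing notes and the paper, poly(A) RNA was read single-end, adapters were removed with Trimmomatic or fastp, alignment was by STAR 2.7.1 against GRCm38 (Ensembl) and counted with featureCounts, whose strand setting none of the sources used here gives. IDs were joined to GENCODE M21, which named 25664 of 25700. A gene was tested (14791 in all) if 50% or more of one genotype's libraries held 10 or more of its counts, with edgeR 4.0.16 in R 4.3.3 (TMM, robust quasi-likelihood test, no covariate, Benjamini-Hochberg over all genes). CPM used TMM library sizes and log2 CPM added a prior count of 2. The permutation test of a single gene or ratio was exact and two-sided, over 35 assignments of genotype, on the absolute difference of means. RPKM used the union of exons. The fold change limit of the study, whose scale its methods leave unnamed, was read as log2, the scale given in the legend of its volcano plot. All library pairs differed beyond sampling noise (chi-square per degree of freedom 15.9 or more). Controls were littermates according to the paper, but no label ties a pup to a litter, so no litter term could be used. The fit was tested on simulated data. A further wild-type pup was not analysed here. In the ligand list Ccn1, Ccn2 and Ccn3 stand for older symbols.

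The genes named are the 10 integrins, up to 3 genes per list with the smallest p, Fn1, Col1a1, the TGF-beta ligands and, by likeness of log2 CPM, 3 genes for each of 4 integrins, of which some are not reported here. Vcam1, Tnc, Npnt, Itga1 and Itga2 fall outside this rule and were chosen after their values were seen, as were the alternative fits read for Fn1. The members and lists were chosen with earlier results of these data known. Alternatives were RLE and upper-quartile factors, the likelihood-ratio test, DESeq2 1.42.0, limma-voom (limma 3.58.1), other filters, covariates, another gene length, a prior count of 0.5 and each library left out. Intervals of 95% are 1.96 standard errors either way.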

Additional observations from a re-analysis of the deposited data

How the results depend on the processing

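Among the 10 integrin genes, DESeq2 called 1 higher (Itgb6) and 1 lower (Itga4) at an adjusted p under 0.05, where edgeR's quasi-likelihood test called 0. At the study's thresholds limma-voom had 2 lower (Itga4 and Itga10), the fit with Y-linked genes as covariate 0 lower, and that with mesenchyme markers as covariate 0 higher and 1 lower, Itga11 (-1.06) in place of Itga4. The mesenchyme covariate reversed Itga8 (0.68), Itga9 (0.27) and Itgb8 (-0.35), and moved Itga10 from -0.86 to -3.83. The cause was not tested. Leaving out 1 library gave 1 to 2 integrin genes lower.

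Over all genes, calls at an adjusted p under 0.05 were 58 higher and 108 lower by the likelihood-ratio test, 132 and 156 by DESeq2, and 1 and 20 with no filter on low counts. They were 0 lower with the mesenchyme covariate and 9 lower with the Y-linked one. Leaving out 1 library gave 0 to 97 higher and 0 to 124 lower, the most without K14;Nogo-A replicate 1. At the study's thresholds it gave 146 to 542 higher and 240 to 545 lower.

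With the longest transcript as length, RPKM was 6.77 for Itga4, 12.6 for Itga5, 1.13 for Itga8, 28.9 for Itgav, 6.41 for Itgb6 and 0.954 for Itgb8, and the order of the genes was the same.

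At the study's thresholds DESeq2 had 1 other integrin subunit higher, and limma-voom had 11 ligands lower and 0 adaptors higher. Leaving out 1 library gave 0 to 1 other integrin subunits higher and 0 to 2 lower, 0 to 1 fibronectin-like ligands higher, 3 to 7 collagens lower, 0 to 1 latent complex genes lower, 0 to 1 TGF-beta response genes higher and 0 to 1 lower, and 0 to 1 adaptors higher and 0 to 1 lower.

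No paired analysis was possible because the genotypes share no replicate number. With 3 and 4 pups the permutation test cannot go below 0.0286, and Itga8 and Itgb8 rest on 97 to 382 counts a library.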

Other observations

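Some proteins inside the cell switch integrins on or link them to the cytoskeleton. Of 30 tested activators and adaptors of adhesion sites, 6 were positive and 24 negative in log2 fold change, with a median of -0.10. At the study's thresholds 1 of the 30 was higher (Fermt1) and 0 lower, beside 2.02% and 2.74% of all genes tested. EdgeR's quasi-likelihood test called 0 of them after adjustment, while 2 higher and 4 lower genes had p under 0.05 before it (6.25% and 6.66% of all genes). Fermt1, kindlin-1 of epithelial cells, was at 26.7 to 39.1 CPM in K14;Nogo-A and 18.9 to 26.1 CPM in wild-type, without overlap (log2 fold change 0.50, standard error 0.15, adjusted p = 0.24, edgeR's quasi-likelihood test). Leaving out K14;Nogo-A pup 2, wild-type pup 8 or wild-type pup 9 took it below the thresholds. Fermt2, kindlin-2 of many other cells, was at 80.4 to 84.1 CPM and 96.8 to 129 CPM, also without overlap (log2 fold change -0.46, standard error 0.10). Tln2, a talin that binds beta chain tails, was at 51.5 to 61.7 CPM and 70.2 to 89.5 CPM (log2 fold change -0.47, standard error 0.11). Without overlap were 5 of the 30 genes in the lower and 2 in the higher direction, beside 6.09% and 5.43% of all genes.

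Over the 7 libraries, the genes whose log2 CPM followed each integrin most closely (Pearson's r, among 11289 genes with a mean of at least 5 CPM) are given as a description, since all points share a few pups and 2 genotypes. For Itga4 they were Klhl13 and Nmnat2 (both r = 0.99) and Ywhae (r = 0.99). For Itgb6 they were Plekhh1 (r = 0.997), Rassf10 (r = 0.99) and Prkaa2 (r = 0.99). For Itgb1 they included Zfpm2 and Neurl1a (both r = 0.99), and for Itgav Ppp4r1 (r = 0.99) and Bmpr2 (r = 0.98).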
